A study of Mus musculus with 4 samples.

Results

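The ephrin, semaphorin and plexin guidance genes were taken as every gene whose single symbol in the array's annotation begins with Epha, Ephb, Efna, Efnb, Sema or Plxn, or is Nrp1 or Nrp2. This rule found 53 genes among the 18193 measured, and it used no measured value. They were 13 Eph receptors, 8 ephrins, 20 semaphorins, 9 plexins, 2 neuropilins and Plxna4os1, which its name marks as an opposite-strand transcript of Plxna4 and which is not a plexin. RNA was measured on 4 single-colour Affymetrix arrays, 2 from E14 cells with Npac RNAi and 2 from E14 cells with control RNAi. E14 is a line of mouse embryonic stem cells, and the gene called Npac on the labels carries the symbol Glyr1 today and encodes a nucleosome-binding chromatin protein. Per the labels' protocols, all cells were grown in 15% serum with 1000 units per ml of LIF, selected with puromycin from 24 hours after transfection for 3 days, and 5 µg of total RNA was labelled. The labels describe the Npac hairpin but give no target for the control one, and the replicates are not said to come from separate cultures. P-values therefore measure only the spread between these arrays, which may be technical, and the number of arrays limits the precision.

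Eph receptors are receptor tyrosine kinases that bind ephrins on the neighbouring cell. The A ephrins are tethered to the membrane by a lipid anchor and the B ephrins span it, and ephrins also signal back into the cell that carries them. Semaphorins are secreted or membrane-bound ligands of plexins, and most secreted class 3 semaphorins need a neuropilin as co-receptor. Both systems reshape the cytoskeleton and cell adhesion, steer axons and growing vessels, and keep unlike cells apart in the early embryo.

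The stretches before the annotated start are shown for the 3 members with the largest rise (Sema3c, Sema3e and Efnb1) and for the member with the largest fall (Epha4). Each is 250 bases from RefSeq on GRCm38.p6, 5′ to 3′ on the gene's strand, from chr5:17574566-17574815 (plus strand) for Sema3c, chr5:14025026-14025275 (plus strand) for Sema3e, chrX:99135811-99136060 (plus strand) for Efnb1 and chr1:77515089-77515338 (minus strand) for Epha4. Capitals mark matches on either strand to GGGCGG, the core of the GC box, or to CCAAT.
Sema3c: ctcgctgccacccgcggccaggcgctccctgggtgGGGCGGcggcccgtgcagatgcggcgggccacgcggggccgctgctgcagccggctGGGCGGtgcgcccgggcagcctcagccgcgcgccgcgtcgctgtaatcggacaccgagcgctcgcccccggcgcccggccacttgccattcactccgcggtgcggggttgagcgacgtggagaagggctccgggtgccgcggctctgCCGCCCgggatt
Sema3e: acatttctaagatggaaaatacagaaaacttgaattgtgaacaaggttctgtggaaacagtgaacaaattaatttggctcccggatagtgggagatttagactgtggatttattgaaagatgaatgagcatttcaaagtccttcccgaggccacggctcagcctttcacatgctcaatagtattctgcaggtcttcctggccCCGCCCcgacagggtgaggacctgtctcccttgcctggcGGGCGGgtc
Efnb1: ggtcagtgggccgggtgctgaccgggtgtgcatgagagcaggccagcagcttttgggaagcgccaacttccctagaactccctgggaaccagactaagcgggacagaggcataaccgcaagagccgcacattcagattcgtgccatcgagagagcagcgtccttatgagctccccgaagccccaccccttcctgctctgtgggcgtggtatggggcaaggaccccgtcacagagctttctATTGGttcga
Epha4: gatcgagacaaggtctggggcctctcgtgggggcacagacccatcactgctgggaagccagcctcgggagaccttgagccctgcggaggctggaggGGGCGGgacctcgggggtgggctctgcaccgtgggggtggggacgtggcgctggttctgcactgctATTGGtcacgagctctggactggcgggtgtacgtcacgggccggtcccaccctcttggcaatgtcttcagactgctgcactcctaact
The Sema3c stretch was 78.4% G and C with 39 CpG dinucleotides and 3 GC box matches. The Sema3e stretch was 48.0% G and C with 7 CpG and 2 GC box matches, so the 2 largest rises lay behind windows of unlike composition. Efnb1 had 1 CCAAT match and 0 GC box matches, and Epha4 had 1 of each. Windows on 1 chromosome were left out for the members, though not for the array genes set beside them. Windows were thus used for 46 of the 53 members. Of these, 37 (80.4%) contained GGGCGG, against 53.4% of the 14452 genes on the array with a window. CCAAT was in 16 (34.8%), against 39.4%. GC box matches were found in 11 of the 13 members called higher that had a window and in 9 of the 10 called lower. A match is a description of letters only.

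The knockdown itself showed as Glyr1 values of 10.23 and 10.20 with Npac RNAi, against 11.30 and 11.32 with control RNAi. These are deposited log2 values, in which a difference of 1 is a doubling. Glyr1 was read from its 1 probe set, which is of a kind shared between transcripts. The difference, Npac RNAi minus control RNAi, was -1.09 with an SE of 0.0458 (limma, 2 arrays in each group, adjusted p = 0.00101), which left 46.9% of the control level.

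A gene was called when its limma p, adjusted over all 18193 genes, was under 0.05. Among the guidance genes 14 were called higher and 12 lower in Npac RNAi, and 27 had no call. Over all genes 22.1% were called higher and 18.7% lower, 40.8% in either direction, against 26.4%, 22.6% and 49.1% of the guidance genes. A difference of at least 1.5-fold was called higher in 6 members (11.3%, against 8.09% of all genes) and lower in 1 (1.89%, against 2.04%). These shares were near those of the whole array. The median log2 difference was -0.090 over the 53 members and -0.04 over all genes. The 6 were Sema3c, Sema3e, Efnb1, Epha2, Plxna1 and Efna5, and the 1 was Epha4. The 27 members without a call differed by -0.40 to 0.28.

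**Figure D1:**
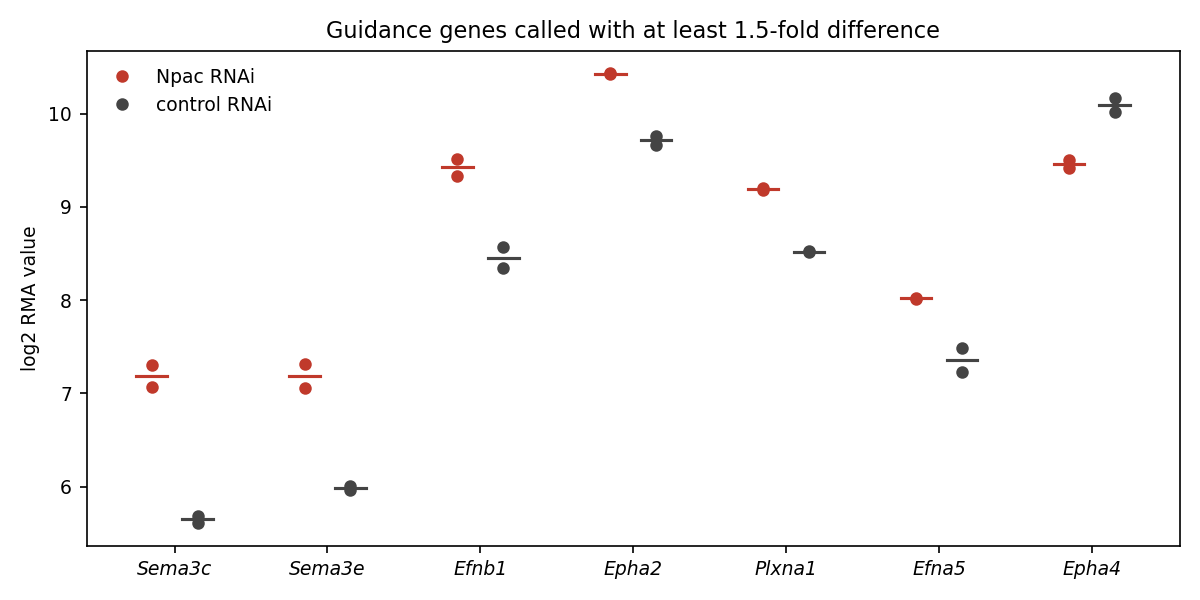
Deposited log2 RMA values (vertical axis) of the 7 guidance genes called with at least a 1.5-fold difference. Points are the 2 arrays per group and bars their means, with Npac RNAi left of control RNAi for each gene. Epha4 alone of the 7 is lower in Npac RNAi. The groups do not overlap in any of them, but they were picked for their difference, so this is no separate result.

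Most members, 35 of 53, had a mean below the median of all genes (7.49). Fewer lay at the lowest levels: 9 of 53 were below the 25th percentile (5.51), a smaller share than the 4548 of all 18193 genes. The deposited table holds no detection calls. At or above the median level 12 of 18 members were called (66.7%, against 52.9% of all such genes), and below the 25th percentile 2 of 9 (22.2%, against 18.2%). Between these levels lay 26 members, of which 46.2% were called, against 39.2% of all such genes. The values are relative to the bulk of transcripts, since the authors' normalization equalises arrays. The 24 poly-A spike-in probe sets, which read bacterial transcripts added to the RNA, were 0.54 higher on the Npac RNAi arrays. Scaling on them lowers every difference by that amount and gave 3 members higher and 39 lower, beside 906 higher and 14895 lower of all 18193 genes. The 3 were Sema3c (0.998), Sema3e (0.66) and Efnb1 (0.43). Centring each array on its median gave 12 members higher and 19 lower, beside 3534 higher and 4652 lower of all genes. As deposited, 4020 of all genes were higher and 3405 lower. Leaving out an array leaves 1 in its group, so the spread comes from the other group alone, and fewer of all genes are called as well. A call lost this way therefore need not mean that the omitted array carried it. Calls on 10 of the 26 members held whichever array was left out, 8 higher and 2 lower: Epha2, Efnb1, Efna1, Efna4, Nrp2, Plxna1, Sema3c, Sema3e, Epha4 and Plxna3. Without the moderation of variances, which borrows spread from all genes, 6 calls held, on Epha2, Efna1, Nrp2, Plxna1, Sema3c and Plxna3. Counts of members called higher were 13 without Npac array 1, 9 without Npac array 2 and 10 without either control array. Counts called lower were 5 without Npac array 1, 4 without Npac array 2, 5 without control array 1 and 3 without control array 2.

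Markers of embryonic stem cells and of other cell types were read beside these counts. Their shares stand against 22.1% higher and 18.7% lower of all genes. Of 8 embryonic stem cell markers 7 were lower (87.5%) and 0 higher. Their summed level (log2 of the sum of linear values) was 15.10 to 15.14 in Npac RNAi and 15.68 to 15.69 in control RNAi. Of 11 trophectoderm markers 10 were higher (90.9%) and 0 lower. Their sums were 15.43 to 15.44 in Npac RNAi and 13.35 to 13.37 in control RNAi. Of 8 endothelial markers 1 was higher (12.5%) and 2 lower (25%). Their sums were 10.04 to 10.07 in Npac RNAi and 9.95 to 9.96 in control RNAi. Flt1 was the 1 called higher (8.28 in Npac RNAi, 7.01 in control RNAi), while Tek and Vwf were called lower. The 8 fibroblast markers gave 0 higher and 2 lower (25%). Their sums were 9.49 to 9.58 in Npac RNAi and 9.68 to 9.86 in control RNAi. The 8 neural markers gave 1 higher (12.5%) and 3 lower (37.5%). Their sums were 10.19 to 10.20 in Npac RNAi and 9.92 to 9.95 in control RNAi. Neurod1 was the 1 called higher (8.82 in Npac RNAi, 7.07 in control RNAi), while Pax6, Tubb3 and Sox1 were called lower. The higher endothelial and neural sums are thus not a rise of either list as a whole. Elf5, Tie1, Emcn, Dcn, Lum, Postn, Col3a1, Dcx and Gap43 lay below the 25th percentile of all genes. The part of any of these cell types in the guidance gene differences was not tested, and in bulk RNA fewer cells of a type and less RNA per cell cannot be told apart.

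Among the Eph receptors Epha2 was higher and Epha4, Epha7 and Epha8 were lower in Npac RNAi, 1 and 3 of 13, while 9 had no call. These are 7.69% higher and 23.1% lower, against 22.1% and 18.7% of all genes. Epha2, a kinase of epithelial and early embryonic cells that binds A ephrins, stood at 10.42 and 10.43 in Npac RNAi and at 9.76 and 9.66 in control RNAi. The Npac RNAi arrays lay close together and above both controls, a 1.64-fold difference (log2 0.72, SE 0.0563, limma adjusted p = 0.0029). With spike-in scaling Epha2 had no call (0.18). Epha4, which binds both A and B ephrins, was at 9.50 and 9.41 in Npac RNAi and at 10.02 and 10.17 in control RNAi. Both Npac RNAi arrays were below both controls, at 64.2% of the control level (log2 -0.64, SE 0.0732, limma adjusted p = 0.00609). Averaging its 5 probe sets gave -0.41.

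Epha7 (-0.39, SE 0.0899) and Epha8 (-0.27, SE 0.054), receptors of the nervous system, fell by less. The call on Epha8 was lost without any 1 of the 4 arrays (-0.31 to -0.23). That on Epha7 was lost without Npac array 2 (-0.28) and without control array 1 or 2 (-0.41 and -0.37), and with the mean of its probe sets (-0.20). The receptors without a call were Epha1 (0.091), Ephb1 (0.039), Ephb4 (0.0022), Epha5 (-0.014), Ephb6 (-0.14), Epha10 (-0.16), Epha6 (-0.17), Ephb3 (-0.18) and Epha3 (-0.19). Of these Epha3, Epha5, Epha6, Ephb1 and Ephb6 were below the 25th percentile of level. Ephb6 and Epha10 lack kinase activity. Ephb3, which was not dim (9.57 and 9.49 in Npac RNAi, 9.67 and 9.73 in control RNAi), was called lower after centring (-0.23) and after quantile normalization (-0.28). After centring 1 receptor was higher and 7 lower, and with spike-in scaling 0 and 12. Both settings also called more of all genes lower (4652 and 14895, against 3405 as deposited).

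Of the 8 ephrins, the ligands of these receptors, 6 were called higher and 0 lower in Npac RNAi (75.0% higher, against 22.1% of all genes), with a median difference of 0.48. The 6 were the A ephrins Efna1, Efna3, Efna4 and Efna5 and the B ephrins Efnb1 and Efnb2. Ephrins were bright, with 2 of 8 below the median level and 0 below the 25th percentile. At or above the median level 33.6% of all genes were called higher. Efnb1, an X-linked ligand of EphB receptors, stood at 9.51 and 9.33 in Npac RNAi and at 8.34 and 8.57 in control RNAi. The lower Npac RNAi array was above the higher control, and the difference was 1.95-fold (log2 0.97, SE 0.11, limma adjusted p = 0.00597). Efna5 was at 8.03 and 8.02 in Npac RNAi, against 7.24 and 7.49 in control RNAi. Its control arrays were further apart than its Npac RNAi arrays, and it rose 1.58-fold (log2 0.66, SE 0.097, limma adjusted p = 0.0106).

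Efna1, a ligand of Epha2, was 7.64 and 7.65 in Npac RNAi and 7.11 and 7.09 in control RNAi, a tight pair in each group (log2 0.54, SE 0.0451). Efnb2, the arterial ephrin and partner of Ephb4, was 9.63 and 9.90 in Npac RNAi and 9.22 and 9.24 in control RNAi (0.53, SE 0.102). Efna4 (0.44, SE 0.0519) and Efna3 (0.32, SE 0.0786) rose by less. Efnb3 (-0.090) and Efna2 (-0.14) had no call. The arrays of Efnb3 overlapped between groups. The median ephrin thus lay above the bulk of genes while the median Eph receptor was at -0.16; the difference between these medians was not tested.

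Without 1 array, 4 to 6 ephrins were called higher. The call on Efna3 was lost without Npac array 2 (0.23) and without control array 1 (0.30) or 2 (0.34), and that on Efnb2 without control array 1 (0.52) or 2 (0.54). Efna5 lost its call without Npac array 2 (0.66). The mean of probe sets gave 0.24 for Efna5 and 0.17 for Efnb2, both without a call. Efna3 had no call after centring (0.27) or quantile normalization (0.20), while Efna2 was called lower under 8 of the 19 other settings, among them centring (-0.20), quantile normalization (-0.27), the mean of its probe sets (-0.24) and restriction to genes at or above the 25th percentile (-0.14). Without the moderation of variances, 1 ephrin was called higher, Efna1. With spike-in scaling Efnb1 alone of the ephrins was called higher, while Efna5 (0.12), Efna1 (0.0052), Efnb2 (-0.0066), Efna4 (-0.10) and Efna3 (-0.22) had no call and Efnb3 (-0.63) and Efna2 (-0.68) were called lower.

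**Figure D2:**
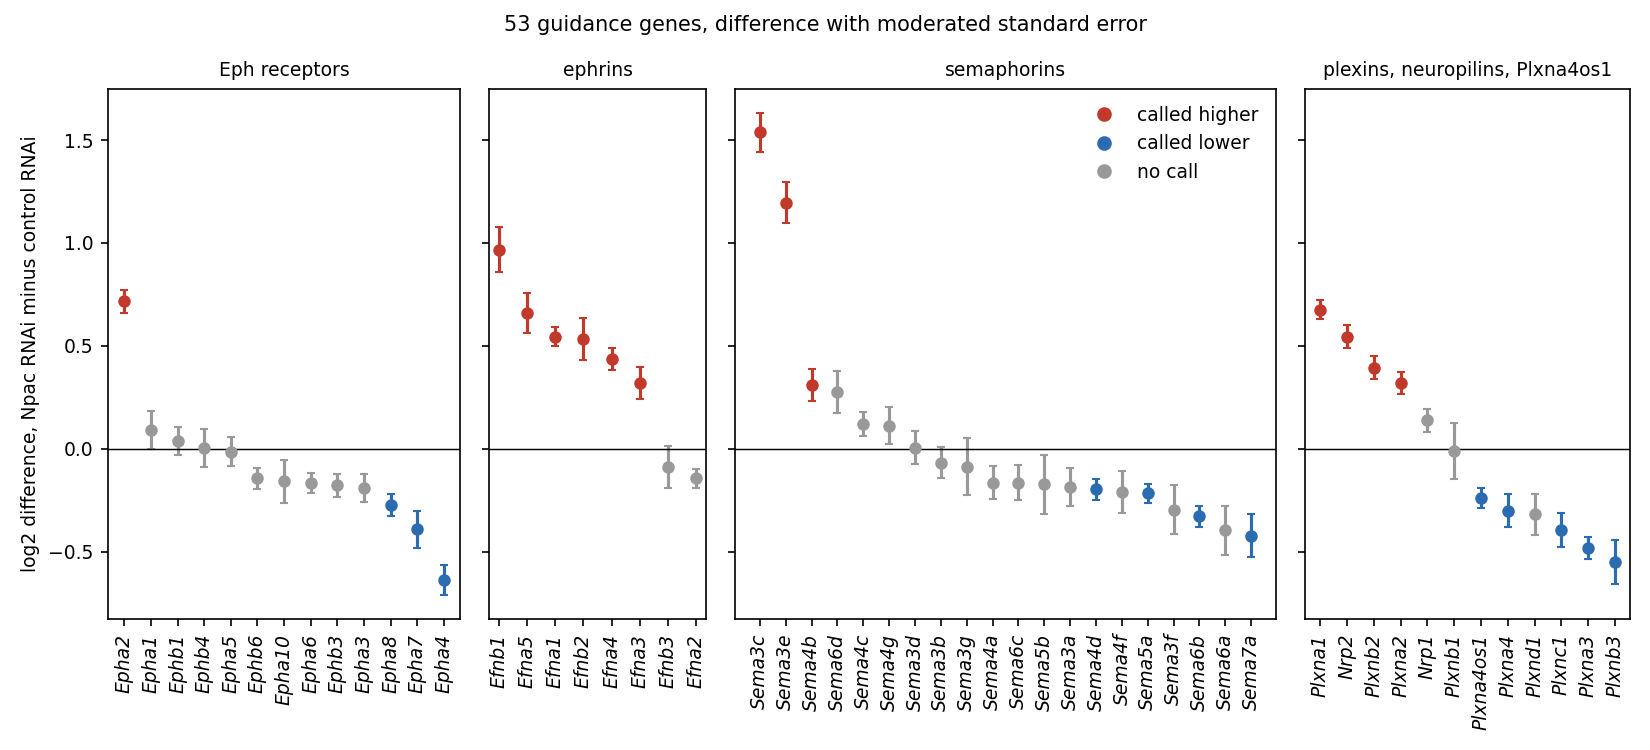
Log2 difference, Npac RNAi minus control RNAi (vertical axis), of all 53 guidance genes by family, with bars of 1 moderated standard error on either side (2 arrays per group). Of 8 ephrins 6 are called higher, whereas 9 of 13 Eph receptors and 13 of 20 semaphorins have no call, and Sema3c (1.54) and Sema3e (1.20) lie highest.

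Of the 20 semaphorins 3 were called higher, among them the 2 largest rises of all the guidance genes, 4 were lower and 13 had no call, with a median of -0.17. The shares, 15% higher and 20% lower, were near or below the 22.1% and 18.7% of all genes. Sema3c, a secreted class 3 semaphorin known from heart and outflow tract development, stood at 7.07 and 7.30 in Npac RNAi and at 5.61 and 5.69 in control RNAi. The gap between the groups was far wider than that between replicates, a 2.90-fold difference (log2 1.54, SE 0.0938, limma adjusted p = 0.00179). The control values lie close to the 25th percentile of all genes. The mean of its 2 probe sets gave 0.69. Sema3e, a secreted vascular repellent that binds Plxnd1 directly without a neuropilin, was 7.06 and 7.31 in Npac RNAi and 6.01 and 5.97 in control RNAi. Both Npac RNAi arrays were more than 1 above both controls, and the fold was 2.29 (log2 1.20, SE 0.1, limma adjusted p = 0.00326). Its receptor gene Plxnd1 had no call (-0.32, SE 0.1, limma adjusted p = 0.0669), with 6.40 and 6.15 in Npac RNAi and 6.62 and 6.56 in control RNAi. The difference of Plxnd1 stayed negative under all 18 other settings that tested it (-0.86 to -0.19), and 4 of them called it lower.

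Sema4b, a transmembrane class 4 semaphorin, rose slightly (0.31, SE 0.0785). The 4 that fell were the lipid-anchored Sema7a (-0.42, SE 0.104), Sema6b (-0.33, SE 0.0518), Sema5a (-0.22, SE 0.0472) and Sema4d (-0.20, SE 0.0515), a ligand of Plxnb1. Sema5a was dim, at 3.93 and 3.96 in Npac RNAi and 4.17 and 4.15 in control RNAi, so whether its transcript was present is uncertain. None of these 5 calls held over all 4 omissions of an array. Those on Sema4d (-0.23 to -0.17), Sema5a (-0.24 to -0.20) and Sema6b (-0.35 to -0.30) were lost without any 1 of the 4 arrays. Sema7a lost its call without Npac array 1 (-0.38) or 2 (-0.46) and without control array 1 (-0.29), and Sema4b without Npac array 2 (0.22) and without control array 1 (0.34) or 2 (0.28). The mean of probe sets gave -0.26 for Sema7a, -0.11 for Sema5a and -0.20 for Sema4d, all without a call. Sema4b had no call after centring (0.26) or quantile normalization (0.20), and was at -0.23 with spike-in scaling, where it was called lower.

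The other class 3 semaphorins had no call. Sema3f, a repellent that acts through Nrp2, was 9.54 and 9.24 in Npac RNAi and 9.62 and 9.75 in control RNAi (-0.30). Sema3d differed by 0.0051, Sema3b by -0.067, Sema3g by -0.088 and Sema3a, the classic repellent acting through Nrp1, by -0.19. Sema3a and Sema3d were below the 25th percentile. In the transmembrane classes Sema6d (0.28), Sema4c (0.12), Sema4g (0.11), Sema4a (-0.17), Sema6c (-0.17), Sema5b (-0.17), Sema4f (-0.21) and Sema6a (-0.40, SE 0.118) had no call. Sema6a, a ligand of Plxna2 and Plxna4, was called lower after centring (-0.45), after quantile normalization (-0.48) and without control array 1 (-0.54). The probe sets used for Sema3f, Sema4a and Sema4f are of a kind in which some probes resemble other sequences, and the one used for Plxnb3 is of a kind shared between transcripts, so these 4 values are uncertain in that respect. With spike-in scaling 2 semaphorins were higher and 17 lower.

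Of the 9 plexins Plxna1, Plxna2 and Plxnb2 were higher (33.3%, against 22.1% of all genes) and Plxna3, Plxna4, Plxnb3 and Plxnc1 lower (44.4%, against 18.7%), and Plxnb1 and Plxnd1 had no call. Plexins are the signalling receptors of semaphorins and inactivate small GTPases of the Ras family. Plxna1 stood at 9.20 and 9.18 in Npac RNAi and at 8.51 and 8.52 in control RNAi. Replicates of each group nearly coincided, and the level was 1.60-fold higher (log2 0.68, SE 0.0456, limma adjusted p = 0.00215). Plxna3, which acts with Nrp2 in the response to Sema3f, was 6.97 and 7.04 in Npac RNAi and 7.47 and 7.50 in control RNAi. It was lower on both Npac RNAi arrays, at 71.6% of the control level (log2 -0.48, SE 0.0514, limma adjusted p = 0.0052).

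Plxnb2, a receptor of class 4 semaphorins, rose by 0.39 (SE 0.0573) and Plxna2 by 0.32 (SE 0.0545). Plxnb3 (-0.55, SE 0.106), a receptor of Sema5a, Plxnc1 (-0.40, SE 0.0822), the receptor of Sema7a, and Plxna4 (-0.30, SE 0.0812) fell. Plxnc1 was dim (4.77 and 4.79 in Npac RNAi, 5.08 and 5.28 in control RNAi). Plxnb1 spread so widely (8.45 and 8.16 in Npac RNAi, 8.19 and 8.44 in control RNAi) that its groups overlapped fully (-0.012, SE 0.138). Plxna4os1 was lower by 0.24 (SE 0.0482) together with Plxna4, but its call was lost without any 1 of the 4 arrays (-0.26 to -0.22).

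Of the neuropilins, co-receptors that also bind vascular growth factor, Nrp2 was 7.75 and 7.81 in Npac RNAi and 7.27 and 7.20 in control RNAi. It was 1.46-fold higher, with no overlap (log2 0.55, SE 0.0548, limma adjusted p = 0.00463). Nrp1 had no call (0.14, SE 0.0546). The call on Plxna2 was lost without any 1 of the 4 arrays (0.28 to 0.35). It was lost for Plxnb2 without Npac array 2 (0.38), for Plxnb3 without Npac array 1 (-0.45) and without control array 1 (-0.45) or 2 (-0.65), for Plxnc1 without Npac array 1 (-0.39) or 2 (-0.40) and without control array 2 (-0.30), and for Plxna4 without Npac array 1 (-0.29) or 2 (-0.31) and without control array 2 (-0.20). The mean of probe sets gave -0.24 for Plxna4, without a call, -0.17 for Plxnc1 and -0.33 for Plxnb3. With spike-in scaling 0 plexins were higher and 6 lower, with Plxna1 at 0.14, Plxna2 at -0.22, Plxnb2 at -0.15 and Nrp2 at 0.0056, all without a call.

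Ligands and receptors of the pairs named above can be set side by side. Sema7a (-0.42) and Plxnc1 (-0.40) were both lower, as were Sema5a (-0.22) and Plxnb3 (-0.55). All of these calls were lost without the moderation of variances and with the replicate number added to the model. In both settings fewer of all genes were called as well. Sema5a and Plxnc1 were also dim. Sema4d (-0.20) was lower and Plxnb1 (-0.012) not called. Sema3e (1.20) was higher and Plxnd1 (-0.32) not called. Efna1 (0.54) and Epha2 (0.72) were both higher, whereas Epha4 (-0.64), which binds the same A ephrins, was lower. Efnb2 (0.53) was higher and Ephb4 (0.0022) not called. For Sema3f (-0.30), which was not called, Nrp2 (0.55) was higher and Plxna3 (-0.48) lower, and for Sema6a (-0.40), not called either, Plxna2 (0.32) was higher and Plxna4 (-0.30) lower. Neither Sema3a (-0.19) nor Nrp1 (0.14) was called.

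For 36 of the 53 genes the array carries more than 1 probe set, and each gene above was read from its brightest. Testing every probe set singly called 33.4% of the 34945 with a single symbol. All 4 probe sets of Sema3e were called higher (0.73 to 1.20), as were all 3 of Efnb1 (0.80 to 1.91). Of 5 for Epha4, 4 were called lower and all were below 0 (-0.64 to -0.20). Nrp2 had 3 of 4 higher (0.39 to 0.55), with the other at 0.30, and Plxna2 had 3 of 4 higher with 2 of them at 0.72 and 0.81, more than its brightest. Efna1 and Efna3 had both of theirs higher.

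Other genes were read differently by their probe sets. The second, dimmer probe set of Sema3c (5.17 and 5.07 in Npac RNAi, 5.27 and 5.30 in control RNAi) had no call (-0.16). The second ones of Plxna1 (-0.14) and Efna5 (-0.17) had no call either. Efnb2 was the 1 gene with calls in both directions: 2 bright probe sets were higher (0.53 and 0.58) and a dim one was lower (-0.27). Plxna4 and Sema4d, called lower as genes, had 0 probe sets called in the test of single probe sets. Their brightest ones had limma adjusted p = 0.0536 for Plxna4 and 0.0588 for Sema4d there. Among genes uncalled by their brightest probe set, 6 had another one called. For Nrp1 2 others were higher (0.50 and 0.47), and for Plxnb1 1 was higher (0.32). A dimmer one was lower for Efna2 (-0.33), Sema3f (-0.36), Sema5b (-0.37) and Sema6d (-0.39). Which transcripts these probe sets read was not tested.

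**Figure D3:**
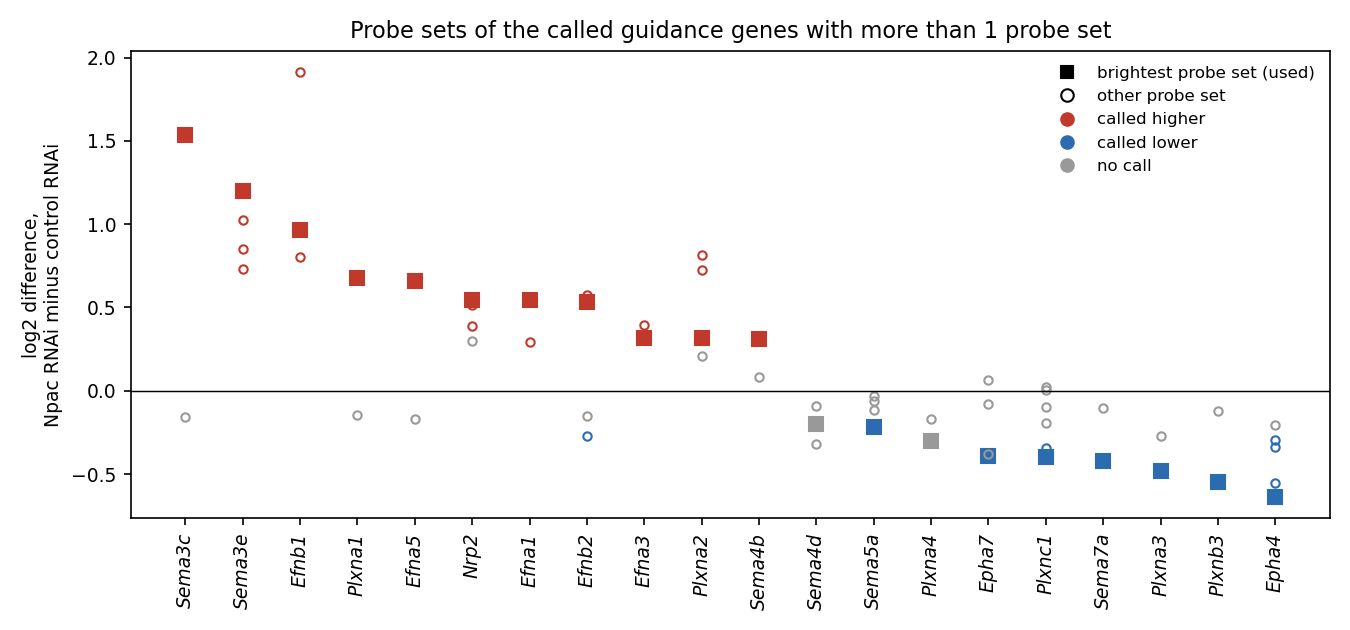
Log2 difference (vertical axis) of every probe set of the called guidance genes that have more than 1. Squares are the brightest probe set, used for the gene, and circles the others, coloured by the test on all 34945 single probe sets. Sema3e, Efnb1 and Epha4 have all their probe sets on 1 side of 0, while the second probe sets of Sema3c, Plxna1 and Efna5 lie below 0.

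Genes that act below or beside these families were read from 3 lists. Of 15 measured effectors of Eph receptors and ephrins 9 were called higher and 0 lower (60.0%, against 22.1% of all genes called higher), with a median of 0.36. Grip1, a scaffold that binds the tails of B ephrins, was 8.22 and 8.35 in Npac RNAi and 6.98 and 6.94 in control RNAi (log2 1.32, SE 0.064). Vav3, an exchange factor recruited by Eph receptors, was 7.49 and 7.43 in Npac RNAi and 6.32 and 6.14 in control RNAi (1.23, SE 0.0784). In both genes the groups were far apart relative to the replicates. The probe set used for Vav3 is of a kind shared between transcripts. Vav2, Abl1, Tiam1, Fyn, Arhgef15 and Ngef had no call. Of the 15, 0 lay below the 25th percentile of level, and at or above the median level 33.6% of all genes were called higher. With 1 array left out 7 or 8 were higher, and with spike-in scaling 4 were higher and 5 lower.

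Of 20 effectors of semaphorins and plexins 5 were higher and 2 lower, with a median of 0.15. These shares, 25% and 10%, stand against 22.1% higher and 18.7% lower of all genes. Nrcam, an adhesion molecule (0.96, SE 0.0996), and Farp1, an exchange factor (0.94, SE 0.078), rose most. Rnd1, a GTPase that binds plexins (-0.50, SE 0.0658), and Mical2, an actin-oxidising enzyme of the Mical family (-0.36, SE 0.0492), fell most. The collapsin response genes Crmp1, Dpysl2, Dpysl3, Dpysl4 and Dpysl5 had no call. Averaging the probe sets gave 0.17 for Nrcam, without a call, and 0.34 for Farp1, and Mical2 lost its call without control array 2. With 1 array left out 2 to 4 of the list were higher, and with spike-in scaling 2 were higher and 17 lower.

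The third list held the other guidance systems, netrins, Slits, repulsive guidance molecules and their receptors. Of 20 measured 1 was higher (5.0%, against 22.1% of all genes) and 6 lower (30.0%, against 18.7%). The median was -0.23. Of the 20, 7 lay below the 25th percentile of level, where 3.21% of all genes were called higher and 15% lower. The one that rose was the netrin receptor Unc5b, at 9.64 and 9.68 in Npac RNAi and 8.28 and 8.32 in control RNAi (2.56-fold, log2 1.36, SE 0.0486). Slit2, the ligand of Robo receptors, fell most (-0.84, SE 0.217), but its arrays were wide apart, at 5.93 and 6.40 in Npac RNAi and 7.21 and 6.81 in control RNAi. Its call was lost without Npac array 1 and without either control array (-1.08 to -0.61 over the 4 omissions), and the mean of its probe sets gave -0.32, without a call. The netrin receptor Dcc was lower by 0.42 (SE 0.0864), a call lost without Npac array 2 or control array 2 (-0.50 to -0.33 over the 4 omissions) and with the mean of its probe sets (-0.061). Without 1 array 0 to 5 of the list were lower, with the mean of probe sets 2, and with spike-in scaling 1 was higher and 18 lower.

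**Figure D4:**
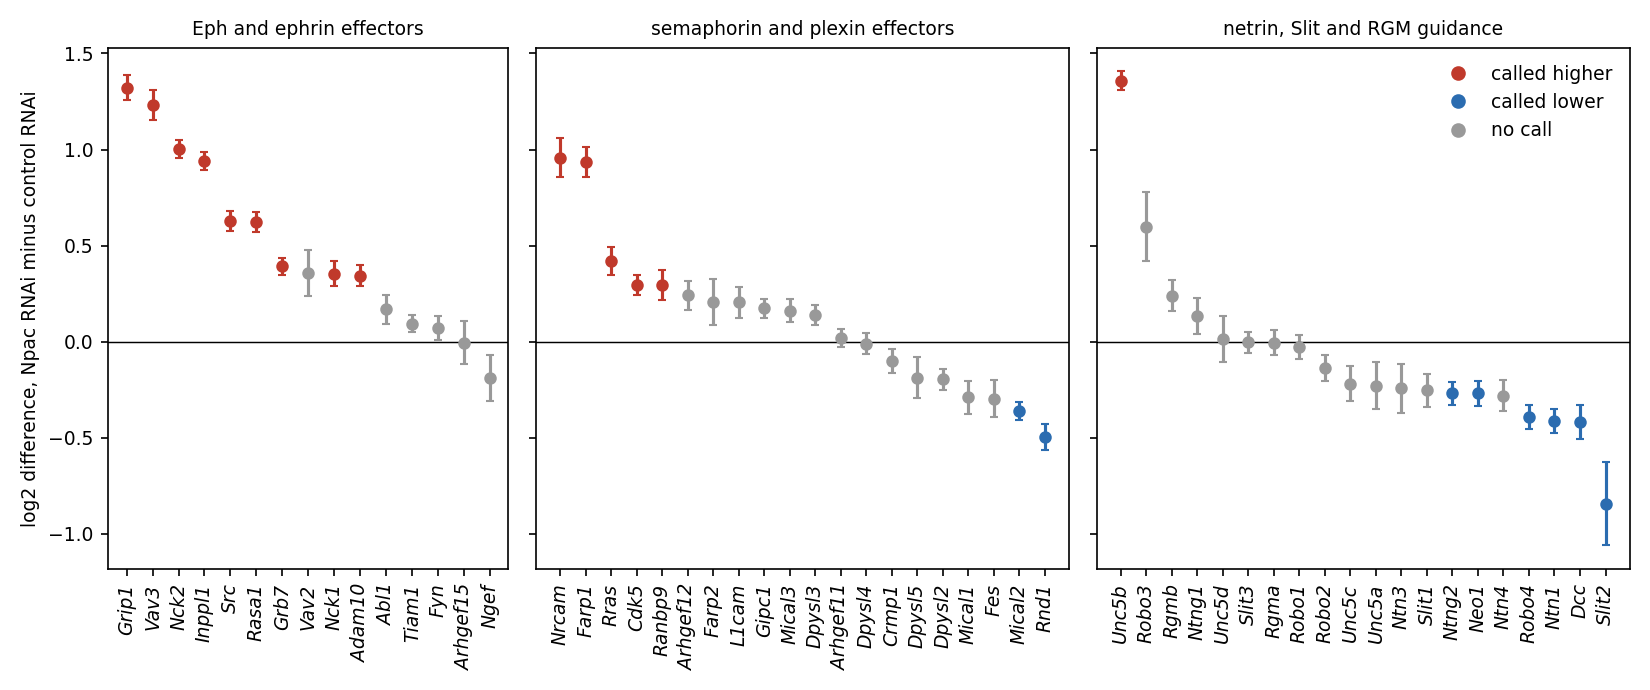
Log2 difference, Npac RNAi minus control RNAi (vertical axis), of the measured genes of 3 lists of guidance pathway genes, with bars of 1 moderated standard error on either side (2 arrays per group). Called genes of the Eph and ephrin effectors are all higher (9 of 15), while 6 of 20 netrin, Slit and repulsive guidance genes are lower and Unc5b is higher.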

How the data were processed

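The deposited values are log2 RMA values, 1 per probe set and array. RMA is named per the submitters' processing notes, without a version. The log2 scale was inferred from the range (2.78 to 15.05 without control probe sets). Of 45101 probe sets 34945 carried 1 gene symbol, 932 several, 9160 had no entry in the platform annotation held and 64 were controls. Entrez identifiers brought 34741 of the 34945 single symbols up to date with RefSeq on GRCm38.p6. Each gene was read from its brightest probe set over all 4 arrays, with no filter on dim genes. The test was a linear model per gene with 1 term, the group, and moderated variances (limma 3.58.1 under R 4.3.3), with Benjamini-Hochberg adjustment over 18193 genes. On simulated data with 200 of 18193 genes changed, 16.0%, 88.0% and 92.0% of those changed by 0.5, 1 and 2 were called. There were 6 false calls. Far more genes were called in the real data (40.8%), which loosens the adjusted threshold, so these shares do not give the sensitivity here. Members, lists and alternatives were chosen with earlier results of these data known. Every member was named, with values on each array for those at 1.5-fold or more. Of each pathway list, up to 2 called genes with the largest rise and 2 with the largest fall were named; genes and probe sets shown beyond this were chosen after their values were seen. Alternatives covered the empirical Bayes step, scaling, filters, probe set choice, thresholds, the replicate number and each array left out.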

Additional observations from a re-analysis of the deposited data

How the results depend on the processing

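The 53 guidance genes were re-tested under 19 other settings. Over genes and settings, 716 values kept direction and side of the threshold, 144 lost a call, 56 gained one and 47 changed sign, 6 of them for genes called on the deposited values. As deposited, 14 members were higher and 12 lower, with 7425 of all genes called. The counts were 5, 1 and 2551 without moderation, 8, 2 and 3129 at an adjusted p under 0.01, 6, 1 and 1842 at 1.5-fold or more, and 3, 39 and 15801 with spike-in scaling. Centring gave 19 lower, beside 4652 of all genes. Restriction to genes at or above the median level gave 4 lower among the fewer genes tested. With 1 array left out, so that the spread comes from the other group alone, members higher ran from 9 to 13, lower from 3 to 5 and all genes called from 3088 to 4731. The replicate number as a block gave 11 higher and 4 lower, with 4375 genes called. The labels do not say that a replicate number marks a shared culture or day, so the numbers were not taken as pairs. The deviations of same-numbered arrays had a correlation of -0.17 across genes. With 2 arrays per group this is a single pair of contrasts, so it cannot show whether same-numbered arrays belong together. The crossed pairing, added after this correlation was seen, gave 14, 11 and 7033. Sign changes fell as follows, and their cause was not tested. Spike-in scaling, a constant shift, gave Epha1 -0.45, Ephb1 -0.50, Ephb4 -0.54, Efnb2 -0.0066, Efna4 -0.10, Efna3 -0.22, Nrp1 -0.40, Plxnb2 -0.15, Plxna2 -0.22, Sema4b -0.23, Sema6d -0.26, Sema4c -0.42, Sema4g -0.43 and Sema3d -0.53. Quantile normalization gave Ephb4 -0.0027, Epha5 0.090 and Sema3b 0.0033, centring gave Ephb1 -0.013, Ephb4 -0.050 and Sema3d -0.047, and cyclic loess gave Epha5 0.088, Sema3b 0.040 and Sema3g 0.022. The mean of probe sets gave Epha1 -0.075, Plxnb1 0.16, Sema6d -0.12, Sema3d -0.041 and Sema3b 0.13, and the probe set with the largest interquartile range gave Epha1 -0.45, Plxnb1 0.32, Sema6d -0.39 and Sema3b 0.30. With 1 array left out, uncalled genes ran from -0.021 to 0.20 (Epha1), -0.11 to 0.11 (Ephb4), -0.035 to 0.11 (Ephb1), -0.086 to 0.058 (Epha5), -0.21 to 0.032 (Efnb3), -0.16 to 0.13 (Plxnb1), -0.37 to 0.025 (Sema5b), -0.15 to 0.018 (Sema3b), -0.075 to 0.085 (Sema3d) and -0.24 to 0.069 (Sema3g). With 2 arrays per group and no detection calls, whether the dim genes were expressed was not tested.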
